A study of Mus musculus with 11 samples.

Results

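The genes described here are 34 named genes of cholesterol and fatty acid synthesis, with the regulators of both pathways and the exporters of cholesterol, read out of a count table of 27687 mouse genes. They were chosen by symbol and by their textbook role, with no measured value in the rule but with earlier results of these data known. A total of 33 of them were found in the table and all 33 passed the filter on low counts. The missing member, Hmgcs1, an enzyme near the start of the mevalonate pathway, was not analysed here. RNA had been sequenced from 11 high-grade gliomas grown in mice. Prolonged knockdown of Ezh2, the methyltransferase of a Polycomb repressive complex, is the label of 9 of them, and the other 2 are controls. Both groups started from subventricular neural stem cells of mice aged 7 days, which carried conditional alleles written as p53;Ink4a/Arf;Krasv12;LucR. The cells had been made tumorigenic in culture with a lentivirus expressing Cre from the CMV promoter. They then received FH1-tUTG-shEzh2, a short hairpin against Ezh2 that doxycycline switches on, were sorted for GFP and were injected into the brains of NOD-SCID mice, an immunodeficient strain. Controls therefore carry the same alleles, Cre history and hairpin construct. The design text speaks of mice with and without doxycycline in the drinking water, while the treatment field gives 2 mg/ml doxycycline with 1% sucrose for every tumour, so that effects of drug and hairpin cannot be told apart. Whether the tumours derive from separate preparations of cells is not in the labels, and p-values then cover only the spread among these samples, which may be technical.

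Cells make cholesterol from acetyl-CoA through mevalonate, farnesyl diphosphate, squalene and lanosterol, and make fatty acids from the same acetyl-CoA through malonyl-CoA. Both pathways are driven by the SREBP transcription factors, which Scap carries from the endoplasmic reticulum to the Golgi for activation by cleavage when sterols are low and which the Insig proteins hold back when sterols are high. The brain makes nearly all of its own cholesterol, much of it for myelin, and excess cholesterol leaves cells through the exporters Abca1 and Abcg1, targets of the sterol-sensing LXR receptors.

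The 11 libraries held between 11209233 and 18638382 counts. Levels are given as CPM, counts scaled to the size of each library with TMM factors. Ezh2 itself lay between 7.27 and 30.4 CPM in the knockdown tumours and at 45.3 and 52.7 CPM in the controls, so that the groups did not overlap. Within the knockdown group it was highest in tumours 3 and 9. Knockdown tumours 1, 7, 8 and 9 had at most 1.10 CPM of Xist, the RNA of the inactive X chromosome, against 41.4 to 131 CPM in the other 7 libraries, while Ddx3y, a Y-linked gene, was present in every library. Most lists of cell type markers differed between the groups too. Summed markers of macrophages and microglia ran from 299 to 667 CPM in the knockdown tumours and were 728 and 1374 CPM in the controls. By edgeR 9 of 12 were lower and 0 higher (9 and 0 at an unadjusted p under 0.05 and by DESeq2, 6 and 0 by limma-voom). For 6 of the 12 the groups did not overlap, while Csf1r, Aif1 and Emr1, called lower by edgeR, had knockdown tumours above control 1. Markers of glioma-initiating and neural stem cells summed to between 2433 and 4038 CPM against 7849 and 6845 CPM, with 5 of 8 lower. Markers of oligodendrocytes and myelin summed to between 289 and 448 CPM against 142 and 120 CPM, with 3 of 11 tested higher and 1 lower. For endothelium and pericytes the sums ran from 500.1 to 909 CPM against 287 and 409 CPM, without overlap, with 2 of 8 higher (Cldn5 and Pdgfrb). As single genes, only these 2 did not overlap between the groups. Pdgfrb alone ran from 145 to 621 CPM against 96.9 and 83.6 CPM, so the gap in the sums rests largely on it. Neuronal markers summed to between 64.9 and 470.4 CPM against 221 and 159 CPM, with 2 of 10 higher. Astrocyte markers summed to between 579 and 1514 CPM against 924 and 937 CPM and overlapped, with 0 of 8 past the test by edgeR (1 higher at an unadjusted p under 0.05, and 1 by DESeq2 and by limma-voom). Beside these counts, 10.3% of all genes tested were higher and 13.0% lower by edgeR. None of the markers on these lists was at 0 in all tumours of a group. In such bulk tumours, fewer cells of a type and less RNA per cell cannot be told apart, and the part of these shifts in the results that follow was not tested.

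Of the 33 measured genes, 11 were lower and 3 were higher in the knockdown tumours (quasi-likelihood test of edgeR, with p adjusted by Benjamini-Hochberg over the 16241 genes tested and a threshold of 0.05). The genes that fell were mostly late enzymes of cholesterol synthesis, both SREBP genes and the exporter Abca1, while those that rose were Acat2, Scap and Acly. The fatty acid synthesis enzymes were, apart from Acly, not past the test. Over all genes tested 23.3% passed in either direction, 10.3% were higher and 13.0% were lower. Among the measured members 42.4% passed, 9.09% were higher and 33.3% were lower. The median log2 fold change of the members was -0.42, with 22 negative and 11 positive, beside 0.07 over all genes tested. Without TMM factors the calls over all genes turned from 1674 higher and 2116 lower to 2045 higher and 1678 lower, the median over all genes rose to 0.16, and 3 higher and 8 lower members were called. The groups did not overlap for 15 members, beside 27.2% of all genes tested: the 14 that passed the test, and Lss. These calls lean on both controls. With control 1 left out 4 of the 14 members were called, with control 2 left out 6, and Acat2, Tm7sf2 and Hsd17b7 were called in both cases. Calls over all genes also became fewer when either control was left out, so this loss is not particular to the members. Among only the 7 tumours with Xist at or above 10 CPM, an alternative chosen after seeing the data, 15 members were called. Of these, 12 were shared with the 14, and in that setting 29.3% of all genes tested were called.

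**Figure D1:**
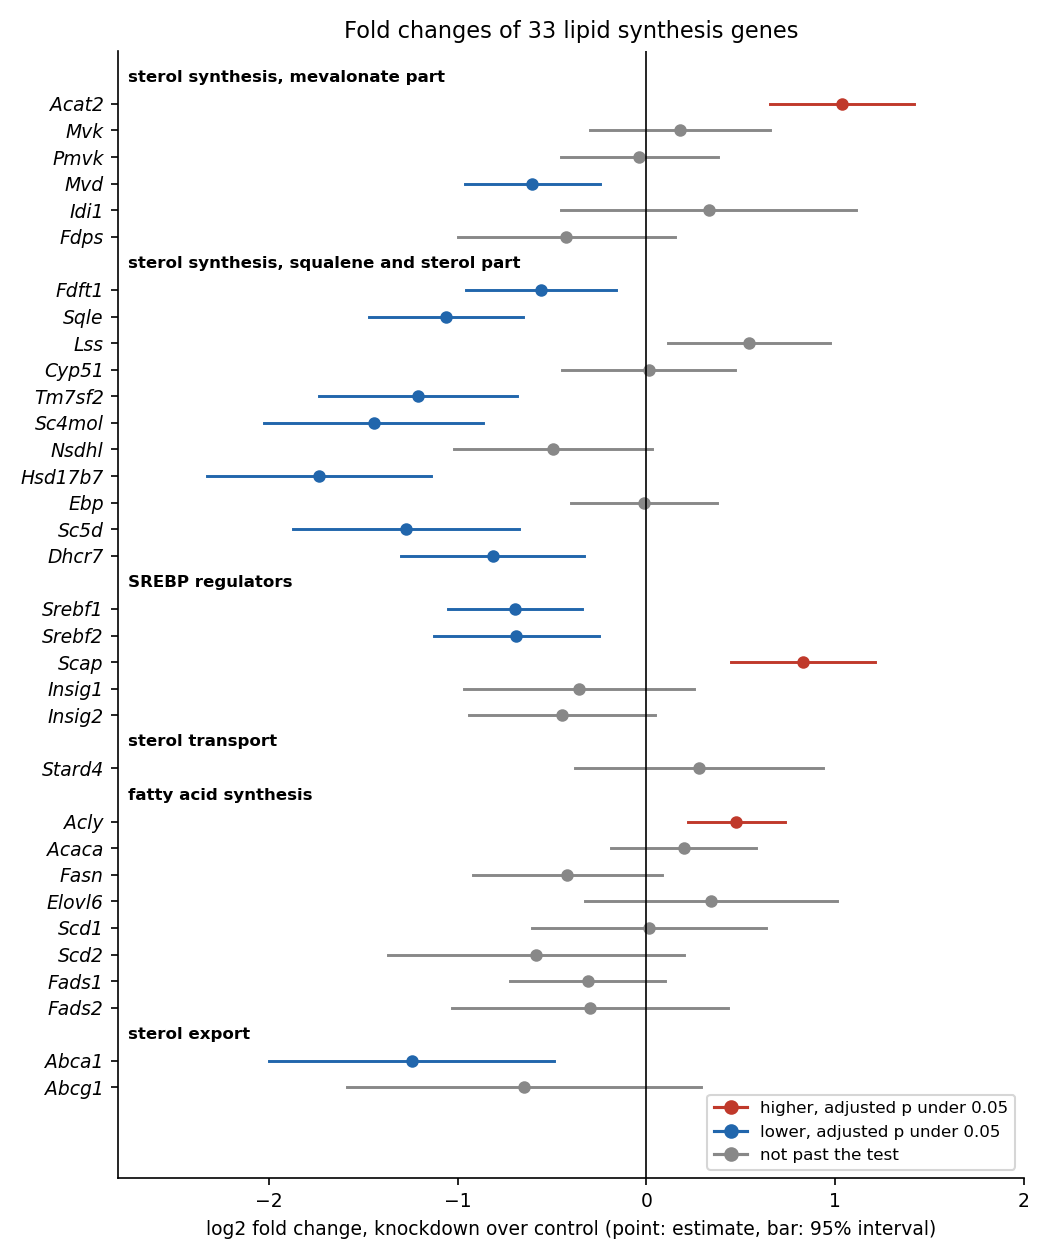
Fitted log2 fold change of the 33 measured genes, knockdown over control, by role, as points with 95% intervals as bars; red and blue mark genes past the test. Late enzymes of cholesterol synthesis, from Fdft1 to Dhcr7, held 7 of the 11 genes that fell, and the fatty acid enzymes held 1 gene past the test, Acly.

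In the early, mevalonate part of the cholesterol pathway, 1 of 6 measured genes was higher and 1 lower, with a median log2 fold change of 0.07. That was 16.7% in each direction, near the 10.3% higher and 13.0% lower over all genes tested. Acat2, the cytosolic thiolase that joins acetyl-CoA units in the opening step, was at 27.97, 32.9 and 39.9 CPM in the knockdown tumours (lowest, median and highest of 9) and at 14.2 and 17.8 CPM in controls 1 and 2. Every knockdown tumour was above both controls, and Acat2 rose 2.05-fold (log2 fold change 1.04 ± 0.18 SE, edgeR adjusted p = 0.0021). Mvd, the decarboxylase that makes isopentenyl diphosphate, was at 12.8, 14.3 and 17.4 CPM against 18.002 and 25.9 CPM. All 9 knockdown tumours lay below both controls, the highest of them close to control 1. Mvd fell by 0.61 ± 0.16 on the log2 scale (edgeR adjusted p = 0.021), a call that was lost without control 2 and without TMM factors. The remaining 4 genes overlapped between groups and did not pass. Mvk and Pmvk, the kinases of mevalonate and phosphomevalonate, had log2 fold changes of 0.18 ± 0.22 and -0.04 ± 0.19. Idi1, the isomerase of isopentenyl diphosphate, was low everywhere, between 1.65 and 3.79 CPM in the knockdown tumours. Fdps, which makes farnesyl diphosphate, ran from 16.1 to 33.2 CPM against 30.9 and 31.7 CPM, with a fitted log2 change of -0.43 ± 0.26 (edgeR adjusted p = 0.26). Of the knockdown tumours, 3 and 6 were above both controls for Fdps and the other 7 below. Summed over the 6 genes, the mevalonate part ran from 86.6 to 130 CPM (median 98.4) in the knockdown tumours and was 88.9 and 110 CPM in the controls.

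In the later part, from squalene to cholesterol, 7 of 11 genes fell and 0 rose by edgeR, with a median log2 fold change of -0.81. That was 63.6% lower and 0% higher, beside 13.0% lower and 10.3% higher over all genes tested. At an unadjusted p under 0.05, 1 gene was higher and 7 lower, and DESeq2 called 1 higher and limma-voom 0. The largest fall among all 33 members was that of Hsd17b7, a ketoreductase that works in the removal of the methyl groups of lanosterol. It was at 9.40, 11.01 and 22.7 CPM in the knockdown tumours and at 44.9 and 39.5 CPM in the controls. Even its highest knockdown tumour, number 9, lay well under the lower control, and the level was 3.33-fold lower (log2 fold change -1.74 ± 0.27, edgeR adjusted p = 0.0013). Sc4mol, also called Msmo1, an oxidase of the same demethylation, was at 24.4, 40.4 and 57.0 CPM against 124.8 and 87.4 CPM. No knockdown tumour reached the lower control, and it fell by 1.45 ± 0.27 on the log2 scale (edgeR adjusted p = 0.0033). Sc5d, a desaturase of the last steps, was at 9.17, 13.6 and 24.8 CPM against 41.5 and 29.9 CPM, with a fitted log2 change of -1.27 ± 0.28 (edgeR adjusted p = 0.0075). Tumour 9 was again its highest knockdown tumour, and the groups did not overlap.

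Sqle, the squalene monooxygenase and a flux-controlling enzyme of the pathway, was the most abundant per length of these 11 genes in the controls. It was at 48.4, 58.5 and 81.1 CPM in the knockdown tumours and at 142.8 and 119.8 CPM in the controls. No knockdown tumour came near the lower control, and Sqle fell by 1.06 ± 0.19 on the log2 scale (edgeR adjusted p = 0.0027). Tm7sf2, a sterol reductase, was at 5.62, 6.50 and 11.3 CPM against 16.6 and 17.04 CPM, with a fitted log2 change of -1.21 ± 0.24 (edgeR adjusted p = 0.0048). Its gene model overlaps that of 1110014N23Rik, which held 4917 counts against 1429 of Tm7sf2 over all tumours and had a log2 fold change of -0.02, and the use of strand in counting is not given in the sources. Dhcr7, the reductase that finishes one branch of the pathway, was at 28.7, 41.1 and 56.8 CPM against 81.9 and 61.9 CPM. The groups were separate but near, and Dhcr7 fell by 0.81 ± 0.22 (log2, edgeR adjusted p = 0.022). Fdft1, the squalene synthase that commits carbon to sterols, was at 26.4, 32.7 and 44.3 CPM against 53.1 and 47.0 CPM, a fall of 0.56 ± 0.18 (log2, edgeR adjusted p = 0.044). Fdft1 is uncertain: it overlaps Ctsb, a cathepsin with 178111 counts against 5864 of Fdft1, which itself fell by 0.83 (edgeR adjusted p = 0.011), and the call of Fdft1 was lost without knockdown tumour 1, 2, 4, 5 or 8, without the filter, and without TMM factors.

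Not every late enzyme fell. Lss, the lanosterol synthase, was at 27.9, 36.4 and 45.3 CPM against 23.9 and 24.2 CPM. Every knockdown tumour was above both controls, but its fitted log2 change of 0.54 ± 0.20 missed the threshold (edgeR adjusted p = 0.064), while DESeq2 called it. Cyp51, the lanosterol demethylase, was at 51.7, 73.8 and 93.8 CPM against 58.5 and 88.4 CPM, a fitted log2 change of 0.01 with a 95% interval from -0.45 to 0.47. Ebp, a sterol isomerase, had a log2 fold change of -0.01, with an interval from -0.40 to 0.38. Nsdhl, the dehydrogenase that acts between Sc4mol and Hsd17b7, had a fitted log2 change of -0.49 ± 0.24 (edgeR adjusted p = 0.16) and overlapped the controls in 1 tumour, number 9, at 34.4 CPM beside 35.7 and 34.3 CPM. Sc4mol, Nsdhl and Hsd17b7, which act in one complex, thus had values between -0.49 (Nsdhl, not past the test) and -1.74 (Hsd17b7). Cyp51, the demethylase that acts before them, lay at 0.01. Summed, the 11 late genes ran from 293 to 456 CPM (median 347) in the knockdown tumours and were 643 and 581 CPM in the controls, with no overlap. Without control 1 the calls of Sqle, Sc4mol, Sc5d, Dhcr7 and Fdft1 were lost, and without control 2 those of Dhcr7 and Fdft1. Beside these falls, the markers of glioma-initiating and neural stem cells and of macrophages given above were lower in the knockdown tumours as well, and their part in the result was not tested.

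**Figure D2:**
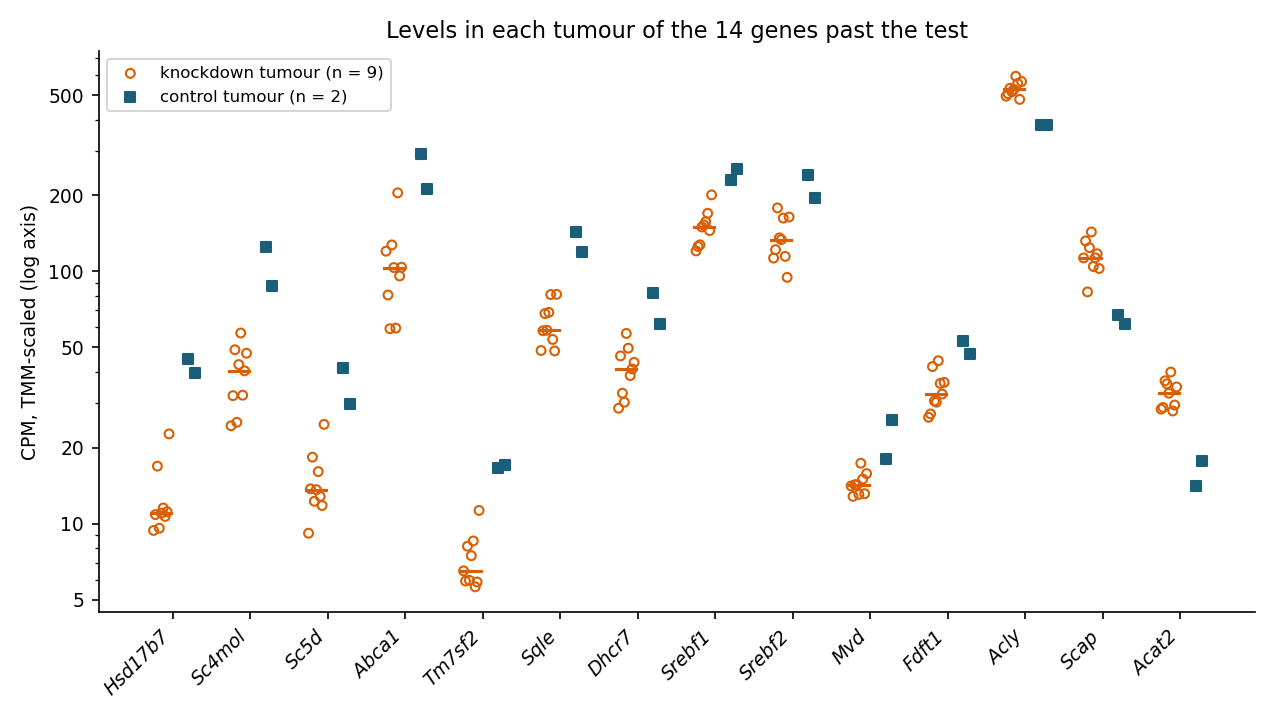
TMM-scaled CPM on a log axis of the 14 genes past the test, with the 9 knockdown tumours as open circles, their median as a line and the 2 controls as squares. Genes are ordered from the largest fall (Hsd17b7) to the largest rise (Acat2), and in none of them do the groups overlap.

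The promoters of the 3 late genes with the largest falls and of Acat2, the gene with the largest rise, are shown because SREBP is known to work on sterol gene promoters together with NF-Y, which binds the CCAAT box. Each runs 5′ to 3′ on the gene's strand, from 250 bases before the annotated start to 50 after it (RefSeq, GRCm38.p6). Capitals mark CCAAT, read on either strand (ATTGG is its reverse complement), and CACGTG, the E-box, which reads the same on both strands and does not overlap CCAAT. They lie at chr1:169969156-169969455 (Hsd17b7, minus strand), chr8:64733529-64733828 (Sc4mol, minus strand), chr9:42264251-42264550 (Sc5d, minus strand) and chr17:12960676-12960975 (Acat2, minus strand).
Hsd17b7: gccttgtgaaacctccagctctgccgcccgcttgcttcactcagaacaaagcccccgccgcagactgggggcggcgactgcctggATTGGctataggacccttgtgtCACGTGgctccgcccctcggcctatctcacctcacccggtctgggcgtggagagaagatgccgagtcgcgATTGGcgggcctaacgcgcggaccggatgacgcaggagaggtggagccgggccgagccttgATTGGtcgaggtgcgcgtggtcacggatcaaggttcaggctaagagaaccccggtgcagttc
Sc4mol: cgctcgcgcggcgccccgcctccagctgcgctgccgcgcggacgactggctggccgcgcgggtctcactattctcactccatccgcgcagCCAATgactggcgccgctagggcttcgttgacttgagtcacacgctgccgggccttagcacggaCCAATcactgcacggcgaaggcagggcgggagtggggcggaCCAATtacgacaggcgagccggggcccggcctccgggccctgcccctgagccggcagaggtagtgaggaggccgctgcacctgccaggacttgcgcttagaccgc
Sc5d: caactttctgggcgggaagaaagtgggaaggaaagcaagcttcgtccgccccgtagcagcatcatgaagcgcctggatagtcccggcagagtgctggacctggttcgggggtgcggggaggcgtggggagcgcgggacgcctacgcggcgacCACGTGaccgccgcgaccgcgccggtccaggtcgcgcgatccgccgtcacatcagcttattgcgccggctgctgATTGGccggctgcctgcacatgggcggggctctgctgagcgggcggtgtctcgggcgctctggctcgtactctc
Acat2: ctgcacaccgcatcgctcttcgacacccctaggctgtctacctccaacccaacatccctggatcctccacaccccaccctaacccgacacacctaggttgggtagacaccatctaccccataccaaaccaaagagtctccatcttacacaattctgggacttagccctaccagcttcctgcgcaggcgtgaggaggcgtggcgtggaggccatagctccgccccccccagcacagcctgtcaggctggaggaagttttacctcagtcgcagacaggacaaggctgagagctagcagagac
The Hsd17b7 window held 3 CCAAT boxes and 1 E-box, that of Sc4mol 3 CCAAT boxes, that of Sc5d 1 of each, and that of Acat2 neither. Promoters were listed for 25 of the 33 measured members. These genes have 33 listed promoters, of which 20 (60.6%) held CCAAT and 7 (21.2%) CACGTG, beside 37.4% and 7.15% of all 32851 listed promoters of this length. Counting a gene once if any of its promoters matched, CCAAT was found in 8 of 9 genes called lower, 1 of 3 called higher and 10 of 13 not called, and CACGTG in 4 of the 9 lower genes, 1 of the 3 higher and 1 of the 13 not called. The letters TCACNCCAC, a core of the sterol regulatory element with 1 free base, were in none of the members' windows and in 1.24% of all promoters. Only exact matches were counted, so an element that differs from these letters was not seen. Some members have more than 1 listed promoter, and a match of letters is a description, not a bound site.

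Among the 5 regulators, both SREBP genes fell and Scap rose. Srebf1, whose products drive mainly fatty acid genes, was at 120.5, 150 and 201.0 CPM in the knockdown tumours and at 231.2 and 255.3 CPM in the controls. The groups did not overlap, with tumour 9 the highest and tumour 1 the lowest of the 9. Srebf1 fell by 0.70 ± 0.16 on the log2 scale (edgeR adjusted p = 0.011), and an exact two-sided permutation test of log2(CPM + 1) over the 55 splits of the tumours gave p = 0.0182, the smallest that 9 against 2 allows. The Srebf1 model overlaps that of Rai1, which held a similar 25008 counts against 26791 and had a fitted log2 change of 0.03. Srebf2, whose product drives mainly cholesterol genes, was at 94.7, 134 and 178.5 CPM against 241.3 and 195.6 CPM. All 9 knockdown tumours lay below both controls, with tumour 8 lowest and tumour 3 highest. Srebf2 fell by 0.69 ± 0.20 (log2, edgeR adjusted p = 0.029), with an exact permutation p of 0.0182. Scap, the escort of the SREBPs, was at 82.9, 113 and 143.3 CPM against 67.0 and 62.1 CPM. Scap thus stood above both controls in every knockdown tumour, and rose 1.78-fold (log2 fold change 0.83 ± 0.18, edgeR adjusted p = 0.0067). The calls of all 3 genes were lost when either control was left out, and that of Srebf2 also without TMM factors.

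The Insig genes, whose proteins retain Scap when sterols are plentiful, did not pass. Insig1, itself a known SREBP target, was at 44.7, 69.3 and 114.5 CPM against 73.0 and 108.2 CPM, with a fitted log2 change of -0.36 ± 0.28 (edgeR adjusted p = 0.37) and an exact permutation p of 0.309. Tumour 9 was above both controls, and the other 8 lay among the controls or below them. Insig2 was at 27.9, 37.3 and 59.8 CPM against 60.5 and 45.5 CPM, with a fitted log2 change of -0.45 ± 0.23 (edgeR adjusted p = 0.17). Tumour 7 was the only knockdown tumour above control 2. Without tumour 7 Insig2 was called lower, a description only, since leaving out its highest value lowers the mean and the spread by construction. Summed, the 5 regulators ran from 429 to 623 CPM in the knockdown tumours and were 673 and 667 CPM in the controls. Stard4, a carrier of cholesterol between membranes, was at 20.6, 26.6 and 45.8 CPM against 21.8 and 30.1 CPM, overlapping, with a fitted log2 change of 0.28 ± 0.30 (edgeR adjusted p = 0.53).

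Among the fatty acid genes 1 of 8 was higher and 0 lower by edgeR, with a median log2 fold change of -0.14. Counts at an unadjusted p under 0.05, and by DESeq2 and limma-voom, were the same. The 12.5% higher was near the 10.3% over all genes tested, and the 0% lower stands beside 13.0%. A difference between these genes and the late cholesterol genes was not tested. Acly, which makes cytosolic acetyl-CoA from citrate for both pathways, was at 480.6, 526 and 593.5 CPM in the knockdown tumours and at 380.4 and 382.1 CPM in the controls. It was the most even of the members, with a coefficient of variation of 6.82% over the 9 knockdown tumours, and no knockdown tumour came near the controls. Acly rose by 0.48 ± 0.12 on the log2 scale (edgeR adjusted p = 0.015), a call lost when either control was left out. Fasn, the fatty acid synthase that gives the set its marker, was at 202.5, 295 and 436.0 CPM against 410.8 and 357.1 CPM. Tumour 6 was above both controls and the other 8 were below both. The log2 fold change of Fasn was -0.42 ± 0.23 (edgeR adjusted p = 0.21; exact permutation p = 0.109). Acaca, the acetyl-CoA carboxylase that feeds Fasn, was at 78.7, 94.1 and 132 CPM against 90.5 and 83.0 CPM, with a fitted log2 change of 0.20 ± 0.18. Elovl6, which lengthens the product of Fasn, was at 42.3, 66.5 and 117 CPM against 50.8 and 62.7 CPM, with a fitted log2 change of 0.34 ± 0.31. Both overlapped the controls and did not pass.

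The desaturases, which place double bonds in fatty acids, were uneven across the knockdown tumours. Scd2, the stearoyl-CoA desaturase most abundant in brain, was per length the highest of all members, at 169 CPM per kilobase of exon in the knockdown tumours and 253 in the controls, ahead of Acly at 100 and 72.2. In single tumours Scd2 lay between 643 and 801 CPM in knockdown tumours 1 to 6 and 8, at 1337 CPM in tumour 7 and at 1864 CPM in tumour 9, against 1509 and 1255 CPM in the controls. So 7 knockdown tumours were at a similar level well under the controls, and the other 2 were inside or above the controls' range. Over all 9, its log2 fold change was -0.58 ± 0.36 and did not pass (edgeR adjusted p = 0.26). With tumours 7 and 9 left out it was -0.96 ± 0.12, a value given as a description, since these tumours had been set apart from earlier results of these data and leaving out its 2 highest values lowers the mean and the spread by construction. Both are among the 4 knockdown tumours with little Xist, the other 2 of which, 1 and 8, had Scd2 at 801 and 643 CPM.

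Scd1, its paralog, was also highest in tumours 7 and 9, though in another order and with tumour 1 the lowest of the 9, with 250 and 219 CPM in tumours 7 and 9 and between 110 and 170 CPM in the other 7, against 207 and 117 CPM in the controls. Its log2 fold change over all 9 was 0.01, with a 95% interval from -0.61 to 0.63. Of the 33 members, Srebf1, Scd1 and Scd2 were the 3 for which tumours 7 and 9 were both above the other 7 knockdown tumours, and for none were both below. The share of all genes with this order was not computed, so the count cannot be read as a trait of the members. Fads2, a desaturase of polyunsaturated fatty acids, was highest in tumour 9, at 86.3 CPM, with between 26.2 and 50.8 CPM in the other 8 and 46.2 and 62.1 CPM in the controls. Its neighbour Fads1 ran from 125 to 217 CPM against 198 and 197 CPM. Neither passed, with log2 fold changes of -0.30 ± 0.34 for Fads2 and -0.31 ± 0.19 for Fads1. Summed over the 8 fatty acid genes, the knockdown tumours ran from 1803 to 3461 CPM (median 2154) and the controls were at 2893 and 2515 CPM, with tumours 7 and 9 at 2664 and 3461 CPM.

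**Figure D3:**
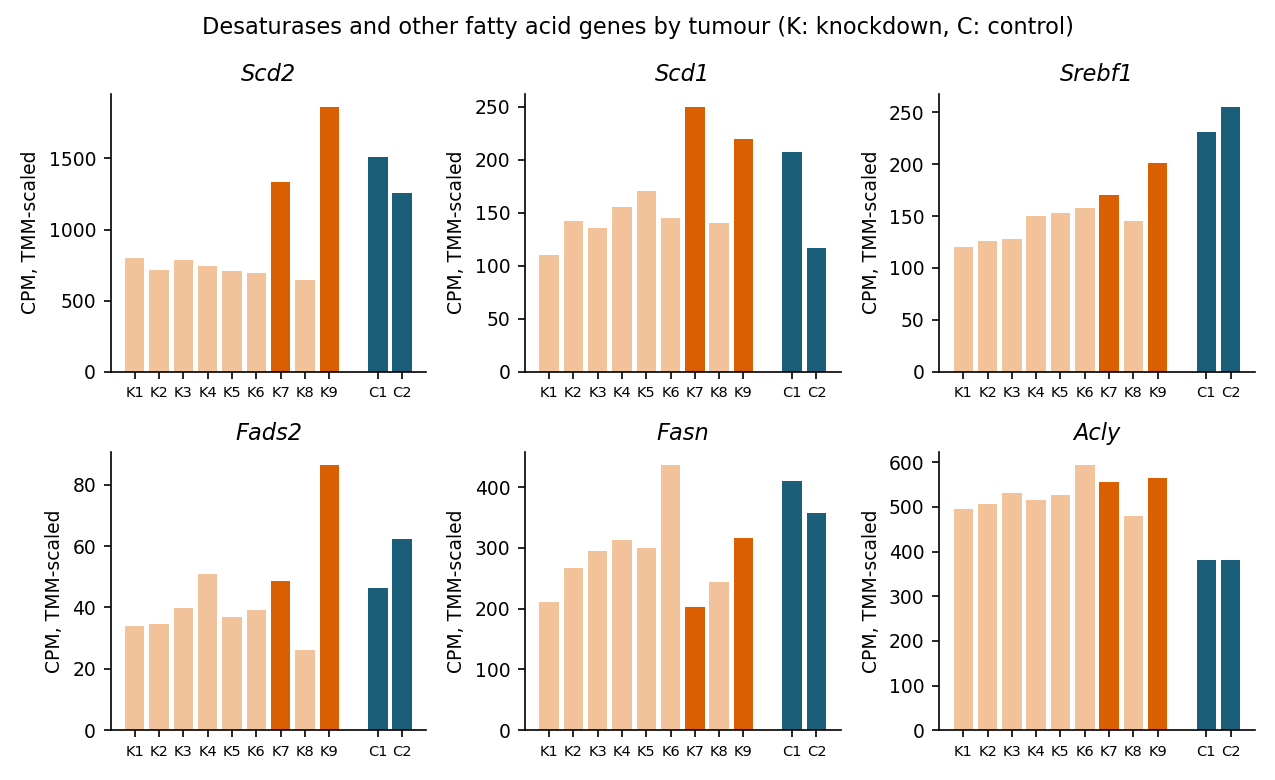
TMM-scaled CPM (bars from 0) of 6 genes in the 9 knockdown tumours (K1 to K9, with K7 and K9 in dark orange) and the 2 controls (C1 and C2, blue). Scd2, Scd1 and Srebf1 are higher in K7 and K9 than in the other knockdown tumours, while Fasn is lowest in K7 and highest in K6.

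Of the exporters, Abca1 fell. Abca1, which loads cholesterol onto apolipoproteins at the cell surface, was at 59.3, 104 and 204.8 CPM in the knockdown tumours and at 291.0 and 212.1 CPM in the controls. Tumour 7 came close to control 2 and the other 8 were at or under 127 CPM. Abca1 fell by 1.24 ± 0.35 on the log2 scale (edgeR adjusted p = 0.024; exact permutation p = 0.0182), a call lost when either control was left out. Abcg1, which exports cholesterol to lipoprotein particles, was at 6.21, 11.7 and 25.0 CPM against 15.002 and 27.5 CPM. Tumours 1 and 9 were above control 1, and the log2 fold change of -0.65 ± 0.43 did not pass (edgeR adjusted p = 0.29). Both exporters are also expressed in macrophages, whose markers were lower in the knockdown tumours, as given above, and the part of that in the fall of Abca1 was not tested. Over the 9 knockdown tumours, Abca1 and Abcg1 had a Pearson r of 0.23 (exact permutation over all pairings, adjusted p = 0.60).

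Within the knockdown group the members varied about as much as other genes, with a median coefficient of variation of 23.9% beside 23.0% over all genes tested, and a range from 6.82% for Acly to 47.0% for Abcg1. For the 17 sterol synthesis genes the same tumours were often high or low together. Tumour 6 was among the 3 highest of the 9 for 15 of these genes, tumour 9 for 13 and tumour 3 for 11. Tumour 1 was among the 3 lowest for 12, tumour 2 for 10 and tumour 8 for 9. These are counts, with no test, and the genes share the same 9 libraries.

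Relations between the members and their regulators were computed over the 9 knockdown tumours on log2(CPM + 1), as a family of 26 with exact permutation p over all pairings, two-sided, adjusted by Benjamini-Hochberg. With Srebf2, all 17 sterol synthesis genes had a positive Pearson r, from 0.10 (Dhcr7) to 0.94, with a median of 0.67. By r 8 of them passed, and by Spearman's rho 4. An r at or above 0.78, the lowest of those 8, was found for 47.1% of the 17 genes and for 1.72% of the 16240 tested genes other than Srebf2, whose median r was 0.01; these shares, added after seeing the data, are a description with no test. For Fdps, r was 0.94 and rho 0.93 (exact permutation adjusted p = 0.0043 and 0.017), and r was 0.94 again without tumours 3 and 8, the 2 farthest from the median of Srebf2. Cyp51 gave r = 0.94 and rho = 0.92 (exact permutation adjusted p = 0.0043 and 0.017), with r = 0.85 without those tumours. For Sqle r was 0.88 and rho 0.87 (exact permutation adjusted p = 0.024 and 0.029), with r = 0.95 without them. Sc5d had r = 0.78 and rho = 0.85 (exact permutation adjusted p = 0.047 and 0.032), with r = 0.82 without them. Acat2, Lss, Tm7sf2 and Nsdhl passed by r alone. Without the 2 tumours r over the 17 genes ran from -0.77 for Ebp to 0.95 for Sqle, with a median of 0.79. So Fdps and Cyp51, which did not differ between the groups past the test, had the highest r with Srebf2 among tumours, and Dhcr7, which was lower in the knockdown, had the lowest.

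Of the 8 fatty acid genes, 3 passed with Srebf1 by r and 1 by rho. An r at or above 0.73, the lowest of the 3, was found for 2.59% of the 16240 tested genes other than Srebf1. Scd1 had r = 0.85 and rho = 0.88 (exact permutation adjusted p = 0.026 and 0.027), and r = 0.73 without tumours 1 and 9. Fads2 and Scd2 had r = 0.75 and 0.73 (exact permutation adjusted p = 0.049 for both) but 0.38 and 0.50 without tumours 1 and 9, and rho of 0.68 and 0.23 that did not pass, so these relations rest on those tumours. Fasn had r = 0.28 and Elovl6 r = -0.30, and neither passed. The labels name no batch or day for these tumours, and no relation could be computed within a batch.

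**Figure D4:**
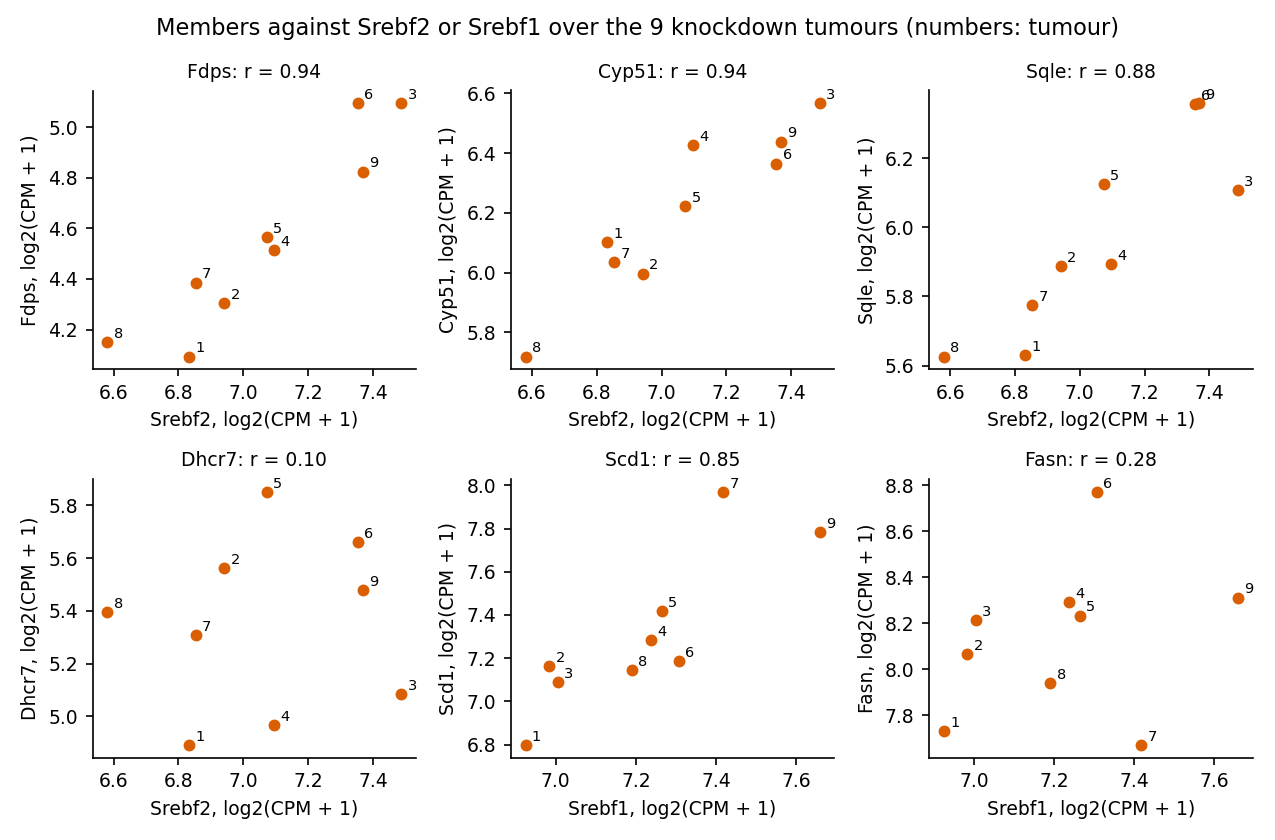
Each panel plots 1 member against Srebf2 or Srebf1, both as log2(CPM + 1), over the 9 knockdown tumours, numbered as in the labels, with Pearson r above. Fdps, Cyp51 and Sqle rise with Srebf2 and Scd1 with Srebf1, while Dhcr7 with Srebf2 (r = 0.10) and Fasn with Srebf1 (r = 0.28) show no clear order.

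Genes of the same pathways that are not members came from 5 lists of 76 genes, of which 72 were tested. Of these 3 were higher and 10 lower by edgeR, 18.1% in all, with a median log2 fold change of -0.10. Over all genes tested 23.3% were called, so this share is no higher. By direction, 4.17% of the 72 were higher and 13.9% lower, beside 10.3% and 13.0% of all genes tested. Of the 9 tested genes of the sterol and isoprenoid list, 1 was higher, Acat1, the mitochondrial thiolase, by 0.63 on the log2 scale (edgeR adjusted p = 0.029). Among 29 tested genes of fatty acid and lipid assembly, 2 were higher and 4 lower. Acacb, the mitochondrial carboxylase, and Elovl4, which makes very long chains, rose by 2.02 and 1.30 on the log2 scale (edgeR adjusted p = 0.0059 and 0.0023). Hsd17b12 and Ptplad1, the reductase and a dehydratase of the chain-lengthening cycle, fell by 0.68 and 0.82 (edgeR adjusted p = 0.0040 and 0.0093).

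Of the 8 genes that process SREBP or turn over its partners, 1 was lower and 0 higher by edgeR. That gene was Mbtps2, the protease that makes the second cleavage of SREBP and so releases the active factor. Mbtps2 was at 15.1, 17.1 and 23.9 CPM in the knockdown tumours and at 68.5 and 55.3 CPM in the controls. The gap between its groups was wide, and it fell by 1.79 ± 0.16 on the log2 scale (edgeR adjusted p = 5.7e-05), a call that held when either control was left out. The LXR and export list had 2 of 10 lower: Arl4c, an LXR target, fell by 2.06 (edgeR adjusted p = 0.00097), and Pltp, the phospholipid transfer protein, fell by 2.29 (edgeR adjusted p = 0.0015). Pltp overlaps Ctsa, which had 41454 counts against 3706 and fell by 0.79. In the list of uptake, storage and oxidation 3 of 16 were lower, among them Soat1, which esterifies cholesterol for storage, by 1.29 (edgeR adjusted p = 0.00054), and Stard3, a sterol carrier of late endosomes, by 0.42 (edgeR adjusted p = 0.018). Without control 1 the calls of Acat1, Acacb, Hsd17b12, Ptplad1 and Stard3 were lost, without control 2 those of Ptplad1 and Stard3, and without TMM factors that of Stard3.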

How the data were processed

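Per the labels' protocols, TRIzol-extracted total RNA was made into Illumina TruSeq libraries and read on a HiSeq2000. The deposited table gives whole-number read counts per Ensembl gene and tumour. Per the submitters' processing notes, TopHat 1.4.0, HTSeq and the mm9 build were used; the sources used here do not give the use of strand or filters on reads. The members and lists were chosen with earlier results of these data known. Groups come from the sample titles.

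The test was that of edgeR 4.0.16 under R 4.3.3 (filterByExpr, TMM, quasi-likelihood F-test, 9 against 2 tumours, no covariates), with Benjamini-Hochberg adjustment over the 16241 genes tested and a threshold of 0.05. SEs were derived from the fold change and the F statistic (log2 fold change over root F). The common biological coefficient of variation was 33.9%. CPM values are TMM-scaled, and 3 counts, the floor, correspond to between 0.162 and 0.273 CPM. CPM per kilobase uses merged GENCODE M21 exons of GRCm38, a later build than that of the counts. Relations and single genes were tested by exact permutation on log2(CPM + 1). Alternatives were RLE size factors, no TMM factors, no filter, DESeq2 1.42.0, limma-voom (limma 3.58.1), an adjusted p under 0.01, left-out tumours and a replicate block. The scripts were tested on simulated counts.

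Values are given for each member past the test, the largest change in each role, the regulators, Fasn and the exporters. From the other lists, the 2 higher and the 2 lower genes of smallest p are named. No replicate was a copy of another: chi-square per degree of freedom between replicates was at least 11.2, and the smallest Pearson r of log2 CPM within a group was 0.926.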

Additional observations from a re-analysis of the deposited data

Results flagged for a closer look

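For 4 of the 33 measured genes, 1 knockdown tumour stood apart from the other 8 by a gap of more than Dixon's 95% critical share of the group's range, which chance alone would pass in about 1 of 20 groups. Insig2 was at 59.8 CPM in knockdown tumour 7, with the next at 42.9 CPM and a gap of 0.53 of the range. Abca1 was at 205 CPM in the same tumour, with the next at 127 CPM (0.53 of the range). Fasn was at 436 CPM in knockdown tumour 6, with the next at 317 CPM (0.51 of the range). Fads2 was at 86.3 CPM in knockdown tumour 9, with the next at 50.8 CPM (0.59 of the range).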

How the results depend on the processing

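The 14 members past the test kept their direction under every alternative run, but many calls did not hold with 1 control, where the lone control is assumed to vary like the knockdown tumours. When 1 tumour was left out, between 1290 and 4269 genes, between 1 and 3 higher and between 3 and 12 lower members, and between 1 and 6 higher and between 4 and 16 lower other pathway genes were called. Numbers 1 and 2, which both groups share, are only names. The deviations of same-numbered tumours correlated at -0.14 and 0.02, and with the number as a replicate block 686 genes, 0 higher and 2 lower members (Hsd17b7 and Abca1), and 0 higher and 5 lower other pathway genes were called. Knockdown tumours 3 to 9 have no control of the same number, so the block fit compares only tumours 1 and 2 of each group. Its calls and fold changes therefore say nothing about the other knockdown tumours. At an adjusted p under 0.01, 1507 genes, 5 lower members and 6 lower other pathway genes were called. Of the other pathway genes, 6 were higher without TMM factors and by DESeq2, 7 higher and 20 lower without tumours 7 and 9, and 5 higher and 16 lower among the tumours with Xist, an alternative chosen after seeing the data. Without tumours 7 and 9, 16 members were called. Insig2 and Scd2 were added, whose highest knockdown values lay in the tumours left out. Over all genes tested, 31.3% were called without tumours 7 and 9 and 29.3% among the tumours with Xist, beside 23.3% in the main fit. The causes of these differences were not tested.

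Members near 0 changed sign without passing the test. Cyp51 turned to -0.024 with RLE factors, by DESeq2 and without tumours 7 and 9, -0.0079 without a filter, -0.14 under the replicate block, and between -0.26 and 0.34 with 1 tumour left out. Scd1 turned to -0.023 with RLE factors and by DESeq2, -0.21 without tumours 7 and 9, -0.31 under the replicate block, -0.14 among the tumours with Xist, and between -0.35 and 0.48 with 1 tumour left out. Ebp turned to 0.0020 by limma-voom, 0.069 without TMM factors, 0.062 under the replicate block, and between -0.33 and 0.39 with 1 tumour left out. Pmvk turned to 0.048 without TMM factors, and between -0.24 and 0.19 with 1 tumour left out. Acaca turned to -0.039 under the replicate block, and Mvk ran between -0.031 and 0.41 with 1 tumour left out. Idi1, at a few CPM, rests on few counts.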

Other observations

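Of the pathway genes outside the member set, Me1, which supplies NADPH for fatty acid synthesis, Elovl5, an elongase of polyunsaturated fatty acids, and Acss2, which activates acetate, were, like Scd2, higher in tumours 7 and 9 than in the other 7 knockdown tumours; they were chosen after their values were seen. Me1 was at 99.1 and 101 CPM in knockdown tumours 7 and 9 and between 30.5 and 45.4 CPM in the other 7. For Elovl5 the values were 140 and 119 CPM against 59.2 to 84.8 CPM, and for Acss2 22.6 and 27.6 CPM against 9.36 to 13.4 CPM. The Acss2 model overlaps those of Gss and Ggt7, which held 7383 and 3046 counts against 2342, and the use of strand is not given.

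Tecr, which completes the chain-lengthening cycle begun by the elongases, also fell, and is named after its values were seen. It was at 86.6, 104 and 139 CPM in the knockdown tumours (lowest, median and highest) and at 166 and 155 CPM in controls 1 and 2. Tecr fell by 0.55 ± 0.15 on the log2 scale (edgeR adjusted p = 0.025). Hsd17b12 and Ptplad1 of the same cycle fell too, as given above, but the cycle did not fall as a whole. Ptpla and Ptplb, also dehydratases, had log2 fold changes of 0.20 and 0.26, and neither passed. Of the elongases, Elovl4 rose, as given above. Elovl1, Elovl2, Elovl5, Elovl6 and Elovl7 did not pass, at -0.11, 1.29, -0.68, 0.34 and 1.24.

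The level of Ezh2 itself over the 9 knockdown tumours was related to that of each of the 33 members, a family added after seeing the data. By Pearson's r and by Spearman's rho 0 of the 33 passed (exact permutation, adjusted over the family), with 4 at an unadjusted exact permutation p under 0.05 by r. The highest was Elovl6, with r = 0.89 and rho = 0.90 (exact permutation adjusted p = 0.052 and 0.067) and r = 0.86 without tumours 3 and 9, the 2 farthest from the median of Ezh2.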
